A study of Homo sapiens with 28 samples.

Results

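TGFB1, TGFB2, TGFBR1, TGFBR2, SMAD2, SMAD3, SMAD4, SMAD7 and SKIL are 9 genes of the transforming growth factor beta (TGF-beta) pathway, taken by symbol from the 19662 gene symbols in each of the deposited expression tables. They were followed through 16 RNA-Seq libraries of prostate cancer cell lines in which ONECUT2, a transcription factor of the cut homeobox family, was silenced or overexpressed, with and without hypoxia. PC3 is an androgen-independent line with neuroendocrine features, and LNCaP is an androgen-sensitive luminal line. PC3 cells were transfected with a control siRNA (siCtrl) or an siRNA against ONECUT2 (siOC2), so transfection is shared by all 8 PC3 libraries. LNCaP cells carried an empty vector (EV) or a Flag-ONECUT2 vector (OC2), and whether these cells were a pool or 1 clone is not given in the sources used here. Each condition was kept in normoxia or in a chamber at 0.2% oxygen, which gives 4 groups per cell line with 2 libraries each. In the siOC2 groups, replicate 1 received siRNA1 and replicate 2 received siRNA2, so their spread includes any difference between the siRNAs. The questions addressed were whether these genes differed with the ONECUT2 level, with oxygen, or with both together.

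TGF-beta ligands are secreted in a latent complex and, once released, bind the type II receptor TGFBR2, which recruits and phosphorylates the type I receptor TGFBR1. The activated receptor phosphorylates SMAD2 and SMAD3, which join SMAD4, the SMAD shared with the bone morphogenetic protein (BMP) branch, and enter the nucleus to regulate transcription. SMAD7, an inhibitory SMAD, and SKIL (SnoN), a transcriptional repressor that binds SMADs, are both induced by the pathway and limit it. In prostate cancer the pathway is known both for growth restraint and for a role in invasion and plasticity. RNA levels report neither ligand release nor SMAD phosphorylation.

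Values are RPKM, reads scaled to transcript length and library size, and differences are given on the log2(RPKM + 0.1) scale with a standard error (SE) from limma. The call needed a fold change above 2 together with P below 0.05 before adjustment, the limits used by the study, and the Benjamini-Hochberg adjusted p over all genes tested in the comparison is given beside it. All 9 genes reached 1 RPKM in 2 or more PC3 libraries, the minimum for testing, and were among the 12214 genes tested there. In LNCaP cells 7 of the 9 were among the 12283 genes tested, and TGFB2 and TGFBR2 were not. SMAD7 in PC3 cells passed this limit through the siRNA1 libraries of siOC2 alone, and TGFB1 in LNCaP cells through hypoxia libraries alone. With 2 libraries against 2, an exact permutation test of a single gene cannot give a p below 0.333, so the limma fit across all genes was used.

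The labels were checked against marker genes. In PC3 cells ONECUT2 had 1.77 and 1.16 RPKM with siCtrl and 0.276 and 0.204 with siOC2 in normoxia, and 0.648 and 0.550 against 0.126 and 0.214 in hypoxia. ONECUT2 had no value in the 4 LNCaP OC2 libraries, so the overexpression could not be checked from the table, and the 4 EV libraries ranged from 2.89 to 11.5 RPKM. KLK3, the androgen-regulated gene for prostate-specific antigen, was listed at 0 in all 8 PC3 libraries and at 1842 to 3997 RPKM in LNCaP cells. CA9, a hypoxia-induced carbonic anhydrase, was at most 1.54 RPKM in the normoxia libraries of PC3 cells and at least 25.8 in those under hypoxia. In LNCaP cells CA9 was at most 0.531 and at least 3.05. Fibroblast markers were near 0, with the highest value for COL3A1 at 2.06 RPKM in the siOC2 hypoxia library of siRNA1. The relative depth, estimated from the smallest RPKM steps of low genes and set against the siOC2 normoxia library of siRNA2, ranged from 0.396 to 1.31 in PC3 cells. It was 0.476 in siCtrl normoxia replicate 1, 0.435 in siCtrl hypoxia replicate 2 and 0.396 in the siOC2 hypoxia library of siRNA1, the shallowest.

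The genes lie on several chromosomes (GRCh37, GENCODE annotation). SMAD3 spans chr15:67356101-67487511 on the plus strand and TGFB1 spans chr19:41807492-41859827 on the minus strand. TGFBR1 spans chr9:101866320-101916474 and TGFBR2 chr3:30648093-30735634, both on the plus strand. The annotated span of TGFB1 overlaps 4 other protein-coding entries, so its low values carry the uncertainty of how reads were assigned there. The 250 bases upstream of the first listed start site of 4 genes are given because these genes carry the differences described here: TGFB1 differed most in LNCaP cells, TGFBR1 and TGFBR2 differed between the siRNAs, and SMAD3 was lower with both siRNAs in hypoxia. Sequences are from RefSeq (GRCh38.p14), written 5′ to 3′ on the gene's strand. The windows are chr19:41353923-41354172 (minus strand), chr9:99104863-99105112, chr3:30606106-30606355 and chr15:67065352-67065601 (plus strand). Capitals mark matches, on either strand, to ACGTG, or to the alternative GCGTG, the core of the hypoxia response element, to the letters ATCGAT of a HNF6/ONECUT site or its variant ATTGAT, or to the palindromic SMAD box GTCTAGAC.
TGFB1: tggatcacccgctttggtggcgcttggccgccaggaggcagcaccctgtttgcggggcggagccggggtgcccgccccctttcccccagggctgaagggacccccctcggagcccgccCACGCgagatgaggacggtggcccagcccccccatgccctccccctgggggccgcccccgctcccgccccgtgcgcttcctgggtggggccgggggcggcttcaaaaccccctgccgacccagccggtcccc
TGFBR1: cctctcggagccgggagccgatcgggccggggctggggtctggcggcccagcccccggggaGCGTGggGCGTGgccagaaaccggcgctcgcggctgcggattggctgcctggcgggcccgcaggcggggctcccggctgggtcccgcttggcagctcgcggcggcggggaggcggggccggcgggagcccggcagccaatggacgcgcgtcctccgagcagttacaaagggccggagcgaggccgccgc
TGFBR2: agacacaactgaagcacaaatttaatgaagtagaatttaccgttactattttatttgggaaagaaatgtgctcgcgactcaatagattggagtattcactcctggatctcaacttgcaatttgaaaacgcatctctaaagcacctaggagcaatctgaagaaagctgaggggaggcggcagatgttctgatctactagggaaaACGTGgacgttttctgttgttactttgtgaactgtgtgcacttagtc
SMAD3: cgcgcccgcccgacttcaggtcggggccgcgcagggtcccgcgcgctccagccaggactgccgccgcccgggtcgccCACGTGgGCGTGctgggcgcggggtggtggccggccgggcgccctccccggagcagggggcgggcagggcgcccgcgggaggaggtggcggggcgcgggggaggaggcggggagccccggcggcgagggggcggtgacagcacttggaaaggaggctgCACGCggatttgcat
ACGTG and its reverse complement overlap in the palindrome CACGTG, which counts as 2 matches. SMAD3 held 2 matches to ACGTG and 2 to GCGTG, TGFBR1 held 2 to GCGTG, TGFBR2 held 1 to ACGTG and TGFB1 held 1 to GCGTG. Among 27305 upstream windows of the same length, 18.7% held ACGTG and 31.9% held GCGTG. None of the 9 genes' windows held either ONECUT form or the SMAD box. The form ATCGAT was present in 0.674% of all windows, the variant ATTGAT in 5.69% and the SMAD box in 0.176%. These are letter matches in 1 window per gene, and no binding was measured in them here. The paper reports a ONECUT2 binding site close to the promoter of SMAD3 at both oxygen levels, from ChIP-Seq that was not analysed here.

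In PC3 cells SMAD3 had the highest mean of the 9 genes over the 8 libraries, with 38.8 to 82.4 RPKM, and SKIL the next with 38.0 to 60.8. Their ranges overlapped, and in siOC2 cells the mean of SKIL was above that of SMAD3 (55.1 against 50.0 RPKM in normoxia and 60.2 against 40.7 in hypoxia). TGFBR2 (9.67 to 51.5), SMAD2 (21.3 to 34.3), TGFBR1 (10.4 to 43.9) and TGFB2 (19.6 to 28.9) came next, with ranges that overlapped each other. SMAD4 (5.61 to 12.8), TGFB1 (2.63 to 4.25) and SMAD7 (0.616 to 1.48) were lower, and the ranges of these 3 did not overlap. By RPKM, TGFB2 was thus above TGFB1 in all 8 libraries of this line, and TGFB3 was not set beside them.

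**Figure D1:**
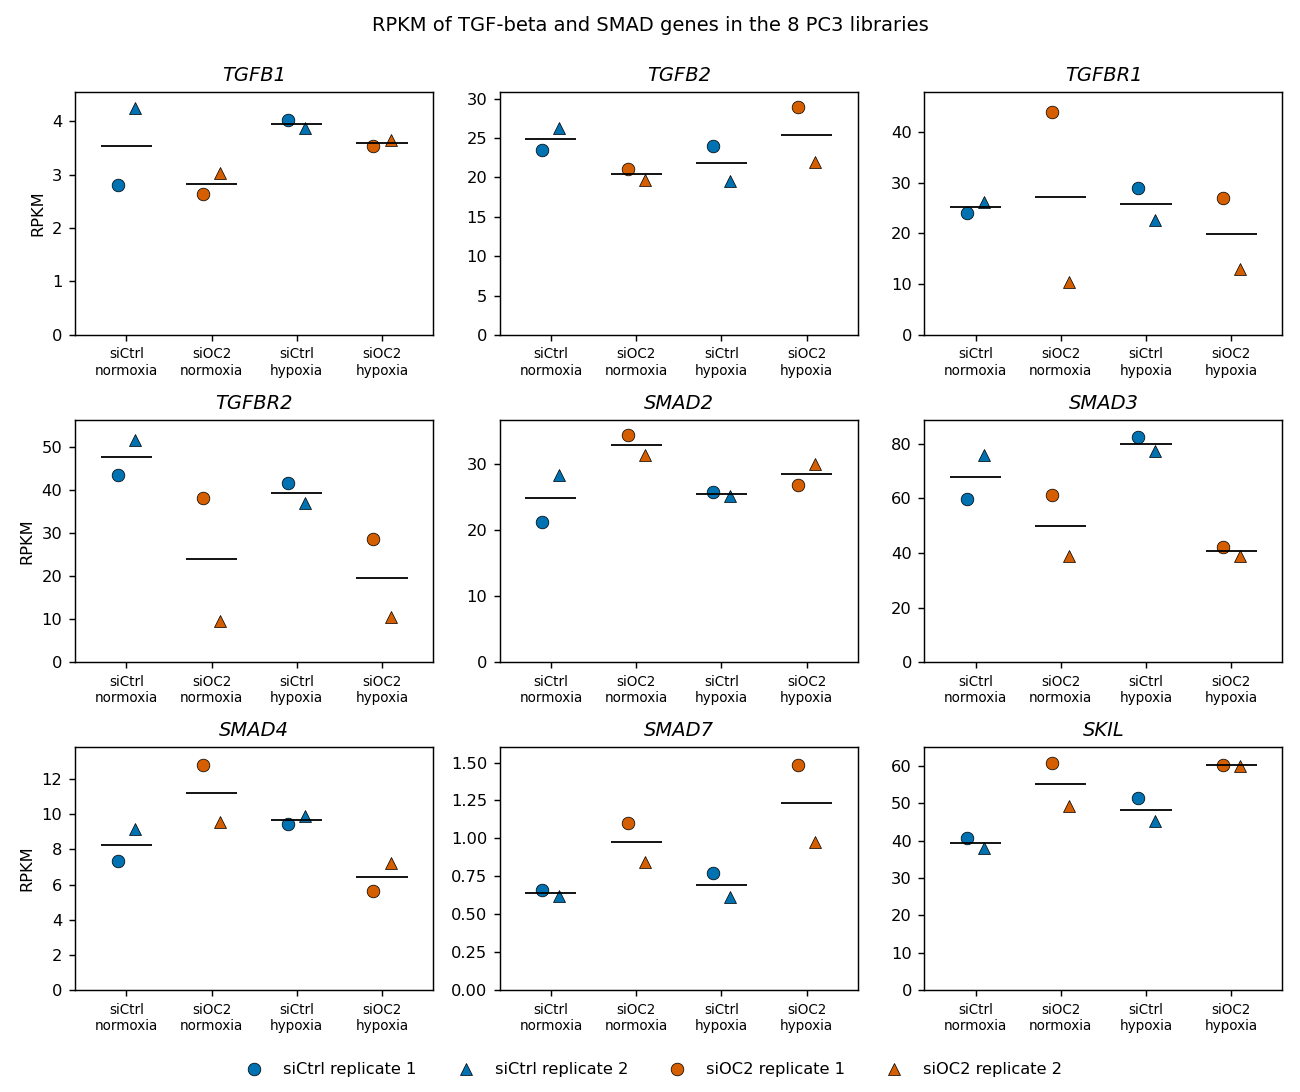
RPKM (y axis, linear from 0) of each gene in the 8 PC3 libraries, by siRNA and oxygen (x axis), with circles for replicate 1, triangles for replicate 2 and a line at the mean of 2. In the siOC2 groups replicate 1 is siRNA1 and replicate 2 is siRNA2, and TGFBR1 and TGFBR2 are low in both siRNA2 libraries.

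In LNCaP cells the order differed. SMAD4 (22.4 to 35.1 RPKM) and SMAD2 (22.6 to 33.5) were highest and overlapped, followed by SMAD7 (8.79 to 21.5), SKIL (6.73 to 15.6), SMAD3 (7.49 to 13.4) and TGFBR1 (3.87 to 9.36), each overlapping its neighbour. TGFB1 ranged from 0.016 to 4.53 RPKM and TGFB2 from 0.126 to 1.14. TGFBR2 stood at 0.190 to 0.355 RPKM in all 8 libraries, against at least 9.67 in PC3 cells. The sum of all RPKM was 401332 to 513810 per PC3 library and 813232 to 961906 per LNCaP library, so levels in the 2 lines are set side by side without a test.

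Silencing of ONECUT2 in PC3 cells called none of the 9 genes in normoxia and none in hypoxia, by the fold change and unadjusted P. Across all tested genes 5.21% were called in normoxia and 7.5% in hypoxia, and 0.00819% and 0.0901% had an adjusted p under 0.05. At an unadjusted P under 0.05 the count among the 9 was 0 in normoxia and 1 in hypoxia, which was SMAD3. The median difference of the 9 genes was -0.23 in normoxia and -0.13 in hypoxia, beside 0.13 and -0.03 over all tested genes.

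SMAD3, a receptor-activated SMAD of the pathway like SMAD2, had 59.9 and 75.9 RPKM with siCtrl and 61.1 and 38.8 with siOC2 in normoxia. In hypoxia it had 82.4 and 77.1 RPKM with siCtrl and 42.3 and 39.0 with siOC2. The groups overlapped in normoxia and were apart in hypoxia, where both siRNAs gave about the same level. The difference of siOC2 from siCtrl was -0.47 (SE 0.29, adjusted p = 0.682) in normoxia. In hypoxia it was -0.97 (SE 0.29, adjusted p = 0.23, 95% interval -1.63 to -0.31), a fold of 1.96 that lies just under the limit of 2. SMAD3 was called in hypoxia without siCtrl replicate 2 (-1.02) or without the siRNA1 library (-1.03). Without siCtrl replicate 1 it was -0.92 and without the siRNA2 library -0.91, further under the fold limit. The interaction of silencing and hypoxia for SMAD3 was -0.50 (SE 0.41, adjusted p = 0.9998), so the difference between the oxygen levels did not pass the test.

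TGFBR2, the type II receptor, had 43.6 and 51.5 RPKM with siCtrl in normoxia, 38.1 with siRNA1 and 9.67 with siRNA2. The hypoxia libraries had 41.6 and 37 RPKM with siCtrl, 28.6 with siRNA1 and 10.6 with siRNA2. The siOC2 libraries were below both siCtrl libraries at each oxygen level, and most of the distance came from siRNA2. The mean difference was -1.30 (SE 0.64, adjusted p = 0.607) in normoxia and -1.16 (SE 0.64, adjusted p = 0.513) in hypoxia. It was called once the spread was computed with the replicate number as a block, at both oxygen levels, or, in a fit chosen after seeing the data, with a term for the siRNA (adjusted p = 0.00595 and 0.00695). In the siOC2 groups the replicate number is the siRNA. Both fits thus take at least part of the difference between the siRNAs out of the spread and leave the mean difference unchanged. With siRNA1 alone, TGFBR2 differed from siCtrl by -0.31 in normoxia and -0.46 in hypoxia and was not called, and with siRNA2 alone by -2.28 and -1.87. Leaving out 1 library also gave a call. This was so in normoxia without the siRNA1 normoxia library (-2.28) and without either siOC2 hypoxia library (-1.30). The same held in hypoxia without the siRNA1 hypoxia library (-1.87) and without either siOC2 normoxia library (-1.16). Leaving out an siOC2 library of the other oxygen level changed only the spread, which then held less of the difference between the siRNAs.

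TGFBR1, the type I receptor, had 24.1 and 26.3 RPKM with siCtrl in normoxia, 43.9 with siRNA1 and 10.4 with siRNA2. Under hypoxia TGFBR1 had 29.0 and 22.6 RPKM with siCtrl, 26.9 with siRNA1 and 12.9 with siRNA2. In normoxia the siRNAs lay on opposite sides of the controls, by 0.80 for siRNA1 and -1.27 for siRNA2. In hypoxia the siRNA1 library was within the controls. The mean differences were -0.23 (SE 0.62) and -0.45 (SE 0.62), and neither passed the test. TGFBR1 was called without the siRNA1 normoxia library (-1.27), and its sign turned without the siRNA2 normoxia library (0.80).

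The 2 siRNAs were therefore compared with each other over both oxygen levels, a comparison chosen after the values were seen. Both receptors were lower with siRNA2 than with siRNA1. TGFBR2 differed by -1.69 (SE 0.25, limma adjusted p = 0.000229) with means of 10.2 against 33.4 RPKM, and TGFBR1 by -1.56 (SE 0.28, limma adjusted p = 0.00101) with 11.7 against 35.4 RPKM. The other 7 of the 9 genes were not called, and their adjusted p were at least 0.262. The siRNAs differed widely beyond these genes, since 19.7% of tested genes were called and 24.4% had an adjusted p under 0.05. The 2 called of 9 are near the share called in either direction. By direction, 15.4% of tested genes were called higher with siRNA2 and 4.31% lower, the direction of both receptors. The median over all tested genes was 0.26, and upper-quartile scaling moved it by -0.15, with TGFBR2 then at -1.84, TGFBR1 at -1.71 and SMAD3 at -0.53 (limma adjusted p = 0.0155). ONECUT2 itself was at a like level with either siRNA, as given above.

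**Figure D2:**
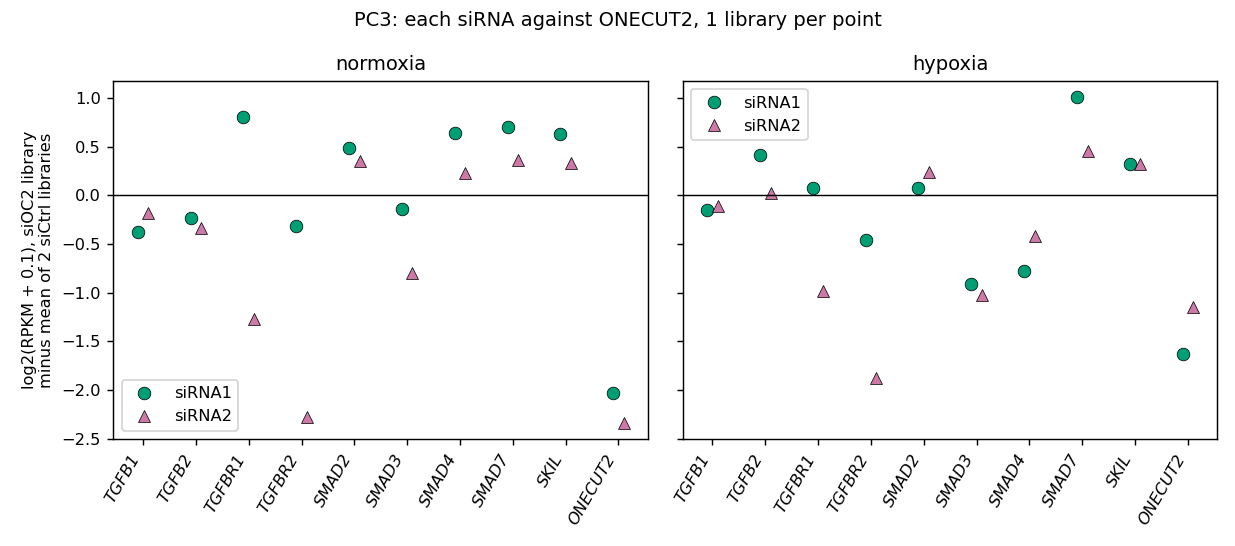
Difference in log2(RPKM + 0.1) of each siOC2 library from the mean of the 2 siCtrl libraries at the same oxygen level (y axis) for the 9 genes and ONECUT2 (x axis), with 1 library per point. TGFBR1 and TGFBR2 are lower with siRNA2 than with siRNA1, SMAD3 in hypoxia is low with both siRNAs, and ONECUT2 is low in all 4 libraries.

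SMAD4, the common partner of the receptor SMADs, had 7.33 and 9.14 RPKM with siCtrl and 12.8 and 9.58 with siOC2 in normoxia. In hypoxia it had 9.47 and 9.88 RPKM with siCtrl and 5.61 and 7.23 with siOC2. The groups did not overlap at either oxygen level, with siOC2 above siCtrl in normoxia and below it in hypoxia. The difference was 0.43 (SE 0.30) in normoxia and -0.60 (SE 0.30) in hypoxia, neither called. Their difference, the interaction, was called at -1.03 (SE 0.42, adjusted p = 0.9998). It was the only one of the 9 genes called for the interaction, for which 0.942% of tested genes were called and 0% passed the adjusted p. The 4 groups include 3 shallow libraries, among them the lowest siCtrl normoxia value and the lowest siOC2 hypoxia value, and their part in the result was not tested. The call was lost with the replicate block (-1.03), after upper-quartile scaling (-0.86), which moved the median interaction of all genes by 0.16, and without any 1 of 6 of the 8 libraries. The difference ranged from -0.82 to -1.19 over these leave-outs: without siCtrl normoxia replicate 1 (-0.87) or 2 (-1.19), siOC2 normoxia replicate 1 (-0.82), siCtrl hypoxia replicate 1 (-1.06) or 2 (-0.997), or siOC2 hypoxia replicate 1 (-0.85).

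SMAD2, TGFB1 and TGFB2 had differences of at most 0.42 in size with silencing, and none was called. SMAD2 had 24.8 ± 5.01 RPKM (SD, n = 2) with siCtrl and 32.9 ± 2.08 with siOC2 in normoxia, and 25.5 ± 0.482 against 28.5 ± 2.29 in hypoxia. TGFB1 had 2.81 and 4.25 RPKM with siCtrl and 2.63 and 3.03 with siOC2 in normoxia, and all 4 hypoxia libraries lay between 3.54 and 4.03. TGFB2 had 23.4 and 26.3 RPKM with siCtrl and 21.1 and 19.7 with siOC2 in normoxia, with overlapping groups in hypoxia. The 95% intervals of TGFB1 ran from -1.03 to 0.47 in normoxia and from -0.88 to 0.61 in hypoxia, and the first of these reaches past a 2-fold lower level.

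The pathway's own inhibitors, SKIL and SMAD7, were not called with silencing. SKIL had 40.8 and 38.0 RPKM with siCtrl and 60.8 and 49.4 with siOC2 in normoxia, and 51.4 and 45.2 against 60.2 and 60.1 in hypoxia. SMAD7 had 0.657 and 0.620 RPKM with siCtrl and 1.10 and 0.847 with siOC2 in normoxia, and 0.769 and 0.616 against 1.48 and 0.979 in hypoxia. Both genes had higher values in the siOC2 libraries than in the siCtrl libraries at each oxygen level. The differences were 0.48 (SE 0.24, adjusted p = 0.607) and 0.32 (SE 0.24) for SKIL, and 0.53 (SE 0.50) and 0.73 (SE 0.50) for SMAD7. In hypoxia SMAD7 differed by 1.01 with siRNA1 alone and by 0.45 with siRNA2 alone. SMAD7 reached 1 RPKM only in the siRNA1 libraries, so the same values admitted it to the test.

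Hypoxia called none of the 9 genes in PC3 cells. With siCtrl, 3.86% of tested genes were called and 0.27% had an adjusted p under 0.05, and with siOC2 the shares were 3.46% and 0.00819%. At an unadjusted P under 0.05 the count among the 9 was 0 with siCtrl and 1 with siOC2, which was SMAD4 at -0.79 (SE 0.30, adjusted p = 0.719). Upper-quartile scaling moved the median hypoxia difference of all genes in siOC2 cells by 0.13. With siCtrl the 9 differences ran from -0.27 for TGFBR2 (SE 0.64) to 0.29 for SKIL (SE 0.24). Each SE rests on 1 spread per gene over all 4 PC3 groups, so it also holds the difference between the siRNAs. For TGFBR2 the SD in normoxia and hypoxia was 5.63 and 3.28 RPKM with siCtrl, and 20.1 and 12.7 with siOC2. SMAD3 differed by 0.24 (SE 0.29) with siCtrl. The hypoxia difference of TGFBR1 in siOC2 cells was -0.19 (SE 0.62). It was called without the siRNA2 normoxia library at -1.23, and its sign turned without the siRNA1 normoxia library (0.84) or the siRNA2 hypoxia library (0.33).

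The wider pathway in PC3 cells was read from 7 lists of 71 genes that include the 9. Of 8 tested genes of the latent complex and its activation, 1 was called lower with silencing at each oxygen level. Over all tested genes 1.59% were called lower in normoxia and 3.95% in hypoxia. This gene was LTBP3, which binds latent TGF-beta in the matrix. LTBP3 had 52.4 and 63.9 RPKM with siCtrl and 22.2 and 23.8 with siOC2 in normoxia (-1.33, SE 0.26, adjusted p = 0.167). Under hypoxia LTBP3 had 97.4 and 83.2 against 28.9 and 23.1 (-1.80, SE 0.26, adjusted p = 0.0502). Both siRNAs gave a like level of LTBP3. Of 11 tested inhibitors, 1 was called higher in normoxia and 2 in hypoxia, beside 3.62% and 3.55% of all tested genes. SMURF2, a ubiquitin ligase that acts on TGF-beta receptors and SMADs, was called at both (1.22 and 1.26), and BAMBI, a pseudoreceptor, in hypoxia (1.64), where the siRNA1 library of 10.3 RPKM lay far above the siRNA2 library of 2.63.

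Among 19 tested target genes 3 were called higher and 1 lower in normoxia, and 3 higher and 2 lower in hypoxia, with list medians of 0.20 and 0.48 beside 0.13 and -0.03 for all genes. Over all tested genes 3.62% were called higher and 1.59% lower in normoxia, and 3.55% and 3.95% in hypoxia. CDKN1A, the cell cycle inhibitor p21, was higher by 1.83 (SE 0.35, adjusted p = 0.167) in normoxia and 1.34 (SE 0.35, adjusted p = 0.183) in hypoxia. JUNB, an AP-1 subunit, was higher by 1.43 and 1.17. VEGFA, an angiogenic factor that is also a hypoxia target, was lower by 1.66 and 1.60 on the log2 scale (-1.66 and -1.60). The siRNAs differed for VEGFA, with means over both oxygen levels of 39.5 RPKM with siRNA2 and 97.5 with siRNA1. Their difference was -1.43 (SE 0.28, limma adjusted p = 0.00216). ITGA5, the fibronectin receptor subunit, was called lower in hypoxia by 1.12 (-1.12). Among 8 tested activin, BMP and GDF ligands, GDF15 was called higher in normoxia (2.14) and INHBA lower in hypoxia (-1.46). Of the 6 receptor SMADs and SMAD4, SMAD9 was called lower in hypoxia (-1.02). None of the 9 tested receptors and none of the 3 ligands was called in either. No gene of these lists had an adjusted p under 0.05 for silencing.

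Hypoxia in PC3 cells called the following genes of the lists, beside 3.86% of all tested genes with siCtrl and 3.46% with siOC2. BMP4, a BMP ligand, was called lower with siCtrl (-2.73, SE 0.52, adjusted p = 0.116) and with siOC2 (-1.62). ITGA5 was called higher with siCtrl (1.76, SE 0.33, adjusted p = 0.112) and CYR61, a matricellular target gene, lower (-1.38). GDF15 was called lower with siOC2 (-1.43). The interaction called SMAD4 and, of the target genes, ITGA5 (-1.23, SE 0.47, adjusted p = 0.9998), beside 0.942% of all tested genes.

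The siRNAs also differed in genes of the wider lists, in a contrast where 15.4% of all tested genes were called higher and 4.31% lower with siRNA2. Of 19 tested target genes 3 were called higher and 5 lower. TAGLN, a cytoskeletal gene induced by TGF-beta, had 30.9 and 33.8 RPKM in the siRNA1 libraries and at most 1.35 in the other 6 PC3 libraries, siCtrl included (siRNA2 over siRNA1 -5.00, SE 0.38, adjusted p = 7.42e-07). ID3, a BMP target, had 86.6 and 41.6 RPKM with siRNA1 and 13.3 and 9.20 with siRNA2 (-2.43, SE 0.25), beside 38.1 and 29.7 with siCtrl in normoxia and 16.7 and 13.7 in hypoxia. ID1 had 39.9 and 47.3 RPKM with siRNA2 and at least 115.0 in the other 6 libraries (-1.56, SE 0.23). ID2 went the other way, with 33.3 and 44.8 RPKM with siRNA2 and 8.74 and 20.0 with siRNA1 (1.54, SE 0.29). Of 9 tested receptors 1 was called higher, ACVR2B (1.07), and 3 lower, TGFBR1, TGFBR2 and TGFBR3 (-1.09), the betaglycan coreceptor. Of 8 ligands of the activin, BMP and GDF list 3 were called higher, among them BMP6 (1.87) and BMP7 (1.51), and 1 lower, INHBB (-1.98). ITGB8, an integrin subunit that activates latent TGF-beta, was called higher (1.86).

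In LNCaP cells 1 of the 7 tested genes was called with OC2 over EV in normoxia and 0 in hypoxia. Across all tested genes 3.29% were called in normoxia and 4.47% in hypoxia, and 5.26% and 11.5% had an adjusted p under 0.05. By the adjusted p the count among the 7 was 2 in normoxia, TGFB1 and SMAD7, and 1 in hypoxia, SMAD3. The unadjusted P was under 0.05 for 4 of the 7 genes in normoxia and 2 in hypoxia.

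**Figure D3:**
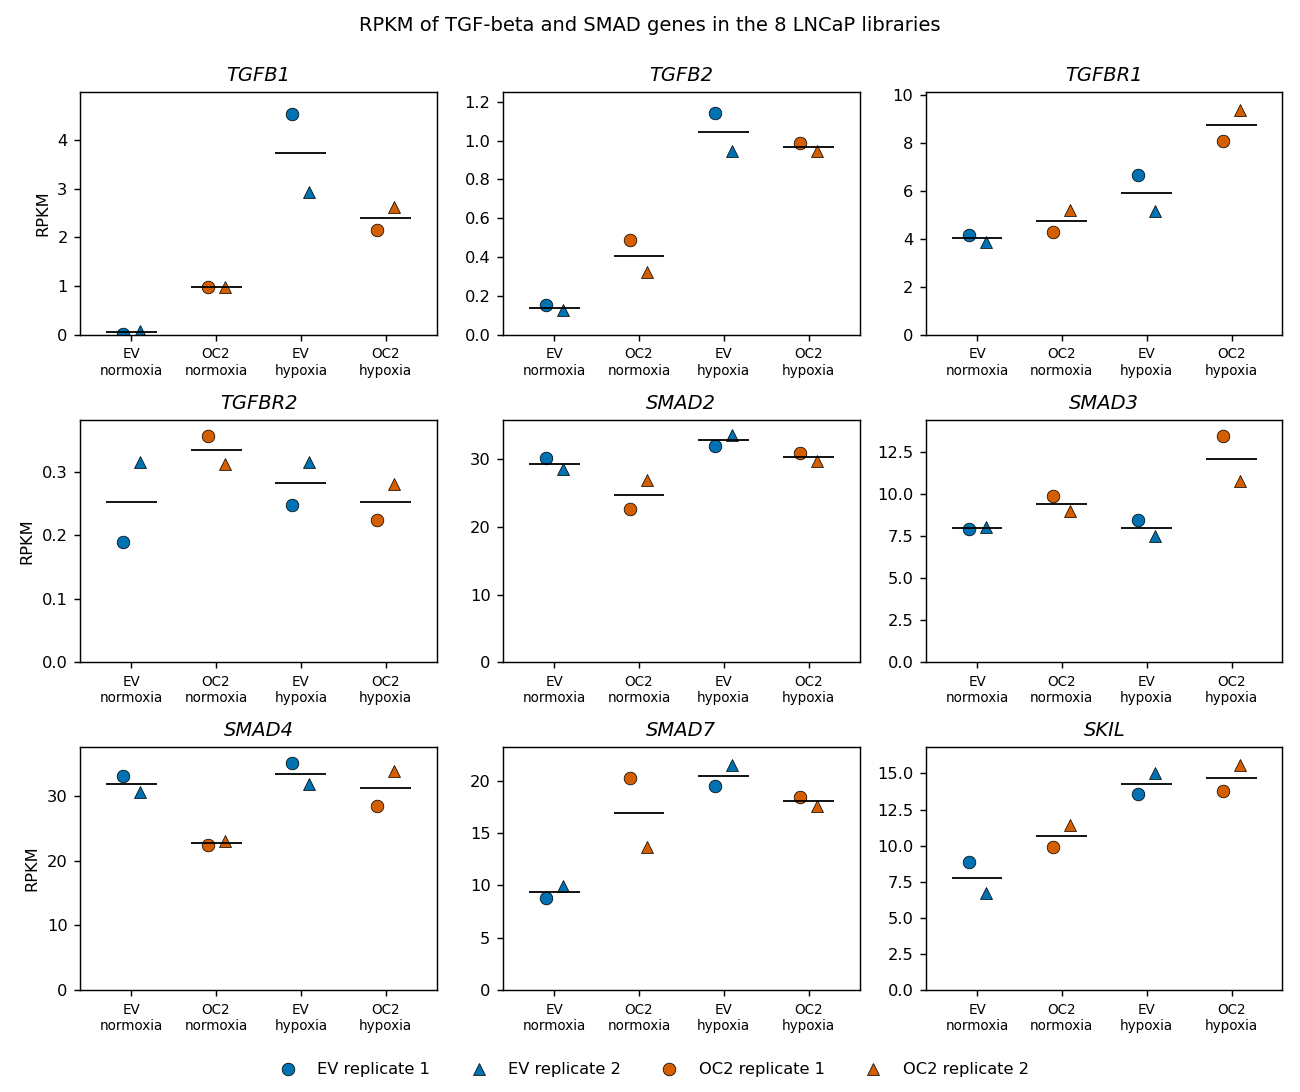
RPKM (y axis, linear from 0) of each gene in the 8 LNCaP libraries, by vector and oxygen (x axis), with circles for replicate 1, triangles for replicate 2 and a line at the mean of 2. TGFB1 is near 0 in the EV normoxia libraries and above 2 in all 4 hypoxia libraries, and SMAD7 is lowest in the EV normoxia libraries.

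TGFB1, the ligand named for the pathway, had 0.016 and 0.089 RPKM with EV in normoxia and 0.972 and 0.991 with OC2. In hypoxia it had 4.53 and 2.94 RPKM with EV and 2.16 and 2.62 with OC2. The EV normoxia libraries were far below the other 6, and the OC2 normoxia libraries lay between them and the hypoxia libraries. OC2 over EV in normoxia was 2.87 (SE 0.32, adjusted p = 0.00263), a fold of 7.32 on this scale. In hypoxia the groups did not overlap but lay the other way, at -0.59 (SE 0.32, adjusted p = 0.263), which was not called. Since the EV values are below or near the pseudocount of 0.1 RPKM, the size of this difference depends on it. With a pseudocount of 1 the normoxia difference was 0.91, of the same direction but under the fold limit.

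SMAD7 had 8.79 and 9.98 RPKM with EV and 20.3 and 13.7 with OC2 in normoxia. In hypoxia it had 19.5 and 21.5 RPKM with EV and 18.4 and 17.6 with OC2. The EV normoxia libraries were the lowest of the 8, and the other 6 ranged from 13.7 to 21.5 RPKM. OC2 over EV was 0.82 (SE 0.18, adjusted p = 0.0383) in normoxia, a fold of 1.77 and so not called, and -0.18 (SE 0.18) in hypoxia. The normoxia difference was called without OC2 normoxia replicate 2 (1.11) and was 0.54 without OC2 normoxia replicate 1. Its adjusted p was not under 0.05 in all of the alternatives.

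SMAD3 had 7.94 and 8.01 RPKM with EV and 9.88 and 8.98 with OC2 in normoxia, and 8.45 and 7.49 against 13.4 and 10.8 in hypoxia. OC2 was above EV at both oxygen levels, by 0.24 (SE 0.14, adjusted p = 0.339) in normoxia and by 0.59 (SE 0.14, adjusted p = 0.0342) in hypoxia, a fold of 1.5. The hypoxia difference ranged from 0.43 to 0.75 over the alternatives, and its adjusted p was not under 0.05 in all of them. The interaction was 0.35 (SE 0.20, adjusted p = 0.414). Under hypoxia SMAD3 was thus lower with siOC2 in PC3 cells, where it did not pass (limma adjusted p = 0.23). It was higher with OC2 in LNCaP cells, where 11.5% of all tested genes passed the adjusted p. The difference was below the fold limit in each line, and the lines were not tested against each other.

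The remaining genes differed less with OC2. SMAD4 had 33.2 and 30.6 RPKM with EV and 22.4 and 23.0 with OC2 in normoxia (-0.48, SE 0.12, adjusted p = 0.0543), and overlapping groups in hypoxia. SKIL had 8.85 and 6.73 RPKM with EV and 9.93 and 11.4 with OC2 in normoxia (0.46, SE 0.16, adjusted p = 0.126). TGFBR1 had 6.66 and 5.16 RPKM with EV and 8.08 and 9.36 with OC2 in hypoxia (0.56, SE 0.17, adjusted p = 0.0723). SMAD2 differed by -0.25 (SE 0.11) in normoxia and -0.11 in hypoxia. TGFB2, not tested, had 0.153 and 0.126 RPKM with EV and 0.489 and 0.324 with OC2 in normoxia, and 0.944 to 1.14 in the 4 hypoxia libraries.

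Hypoxia over normoxia called 2 of the 7 genes in EV cells, TGFB1 and SMAD7, and 1 in OC2 cells, TGFB1, all higher. TGFB1 passed the 1 RPKM limit through hypoxia libraries alone. Its higher values in hypoxia therefore also admitted it to the test, and the counts that include it are not independent of the filter. Across all tested genes 7.95% were called in EV cells and 6.84% in OC2 cells, and 32.3% and 26.9% had an adjusted p under 0.05. By the adjusted p the counts were 4 of 7 in EV cells and 3 of 7 in OC2 cells. The median of the 7 genes was 0.54 in EV cells and 0.45 in OC2 cells, beside 0.02 and 0.09 over all genes.

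TGFB1 was higher in hypoxia by 4.66 (SE 0.32, adjusted p = 5.52e-05) in EV cells and by 1.2 (SE 0.32, adjusted p = 0.0266) in OC2 cells. With a pseudocount of 1 these differences were 2.15 and 0.77, the latter under the fold limit. In OC2 cells the difference ranged from 0.77 to 1.33 over the alternatives, and its adjusted p was not under 0.05 in all of them. The interaction was -3.47 (SE 0.45, adjusted p = 0.034), with OC2 cells near 1 RPKM and EV cells near 0 in normoxia and all 4 libraries above 2 RPKM in hypoxia. The interaction was -1.38 with a pseudocount of 1, and its adjusted p ranged from 0.0299 to 0.167 over the alternatives. SMAD7 was higher in hypoxia by 1.12 (SE 0.18, adjusted p = 0.00281) in EV cells and differed by 0.11 (SE 0.18) in OC2 cells, with an interaction of -1.01 (SE 0.25, adjusted p = 0.127). Both interactions were called, 2 of 7 genes, where 3.7% of tested genes were called and 0.244% passed the adjusted p. The SMAD7 interaction fell under the fold limit with a pseudocount of 1 (-0.94) and without EV normoxia replicate 1 (-0.92), OC2 normoxia replicate 1 (-0.72), EV hypoxia replicate 2 (-0.94) or OC2 hypoxia replicate 2 (-0.97).

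SKIL was higher in hypoxia in EV cells, with 13.6 and 15.0 RPKM against 8.85 and 6.73 (0.88, SE 0.16, adjusted p = 0.00466). It was called without EV normoxia replicate 1 (1.07) and was 0.68 without EV normoxia replicate 2. In OC2 cells it differed by 0.46 (SE 0.16, adjusted p = 0.063). TGFBR1 was higher by 0.54 (SE 0.17, adjusted p = 0.045) in EV cells and 0.87 (SE 0.17, adjusted p = 0.00898) in OC2 cells. In OC2 cells it was called without OC2 normoxia replicate 2 (1.01) and was 0.73 without OC2 normoxia replicate 1. SMAD4 was higher in OC2 cells by the adjusted p (0.45, SE 0.12, adjusted p = 0.0256), beside 0.07 (SE 0.12) in EV cells, and the interaction of 0.38 (adjusted p = 0.299) did not pass the test. The adjusted p of TGFBR1 in EV and in OC2 cells and of SMAD4 in OC2 cells was not under 0.05 in all alternatives. SMAD3 differed by -0.00327 (SE 0.14) in EV cells and 0.35 (SE 0.14, adjusted p = 0.101) in OC2 cells. TGFBR2 was not tested at its low level, with EV values of 0.190 and 0.315 RPKM in normoxia and 0.248 and 0.316 in hypoxia.

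**Figure D4:**
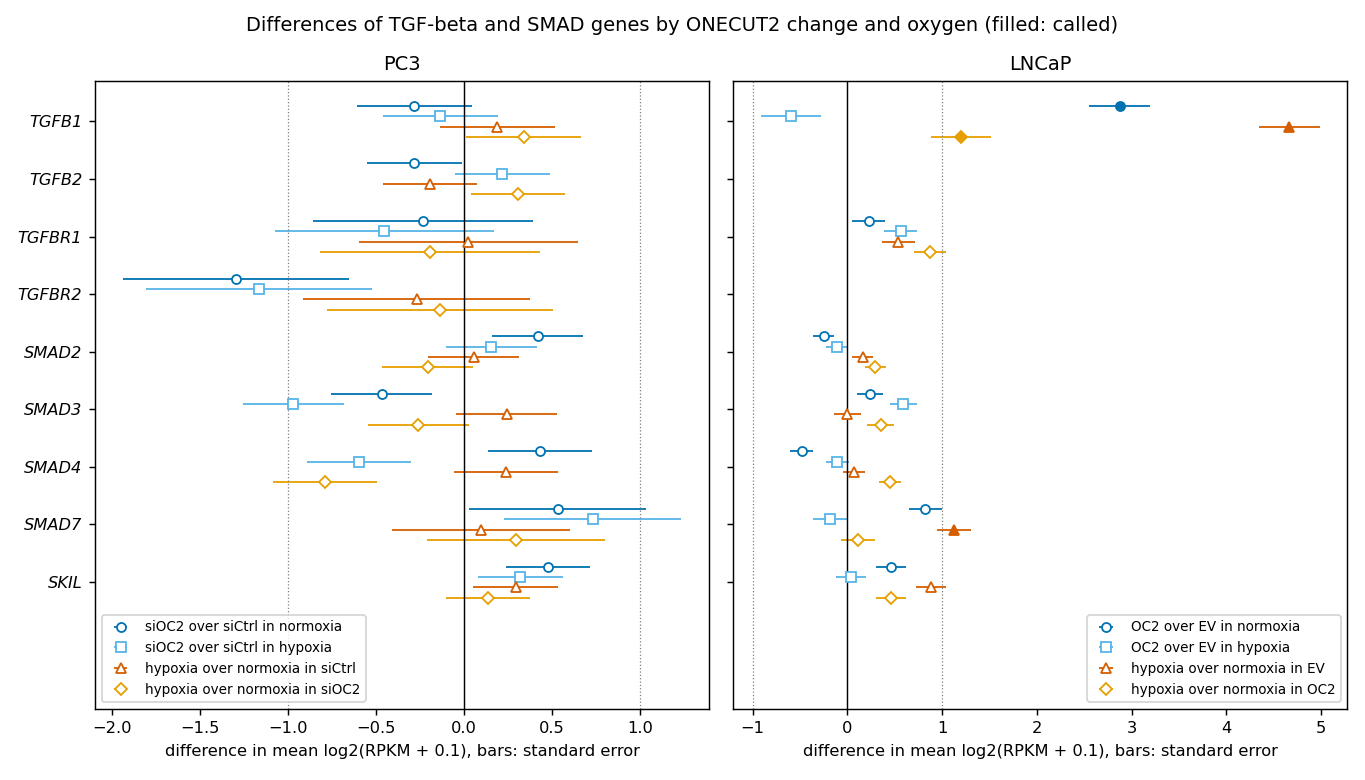
Difference in mean log2(RPKM + 0.1) (x axis) with its limma SE as a bar, for the 9 genes (y axis) in 4 comparisons per cell line, 2 libraries a group. Filled points are called, dotted lines mark 2-fold. None is filled in PC3 cells, and TGFB1 (3 comparisons) and SMAD7 (1) are filled in LNCaP cells.

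Many genes of the wider lists were higher with hypoxia in LNCaP cells. Of 16 tested target genes 7 were called higher and 0 lower in EV cells, and 6 and 0 in OC2 cells, with medians of 0.91 and 0.66 beside 0.02 and 0.09 over all genes. Over all tested genes 5.6% were called higher and 2.34% lower in EV cells, and 5.48% and 1.36% in OC2 cells. FN1, the gene for fibronectin, had 76.9 and 59.7 RPKM with EV in normoxia and 513 and 487 in hypoxia (2.88, SE 0.12, adjusted p = 8e-06), and rose by 2.24 in OC2 cells. ID2, an inhibitor of helix-loop-helix factors, rose by 2.43 (SE 0.11) in EV cells and 1.26 (SE 0.11) in OC2 cells. ID1 rose by 2.20 and ID3 by 1.74 in EV cells. VEGFA rose by 2.05 and COL1A1 by 1.22 in OC2 cells. Of 12 tested inhibitors 4 were called higher in EV cells, BAMBI (2.1), SMAD6 (1.18), LDLRAD4 (1.15) and SMAD7, and 1 in OC2 cells, BAMBI (2.04). SMAD6 is the inhibitory SMAD of the BMP branch. THBS1, a matrix protein that activates latent TGF-beta, rose by 2.83 (SE 0.19) in EV cells and 1.88 (SE 0.19) in OC2 cells. BMPR1A (1.047) and SMAD9 (1.07), a BMP receptor and a BMP-branch SMAD, were called in EV cells, and the receptor ACVR2B (1.03) in OC2 cells. Of 5 tested activin, BMP and GDF ligands, BMP7 (1.28) was called higher and INHBB (-1.26) lower in EV cells, and GDF15 (2.42) and BMP7 (1.01) higher in OC2 cells. KLK3 was also higher with hypoxia in EV cells (0.93), as was another androgen-regulated marker, KLK2 (1.16), and their part in the result was not tested.

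**Figure D5:**
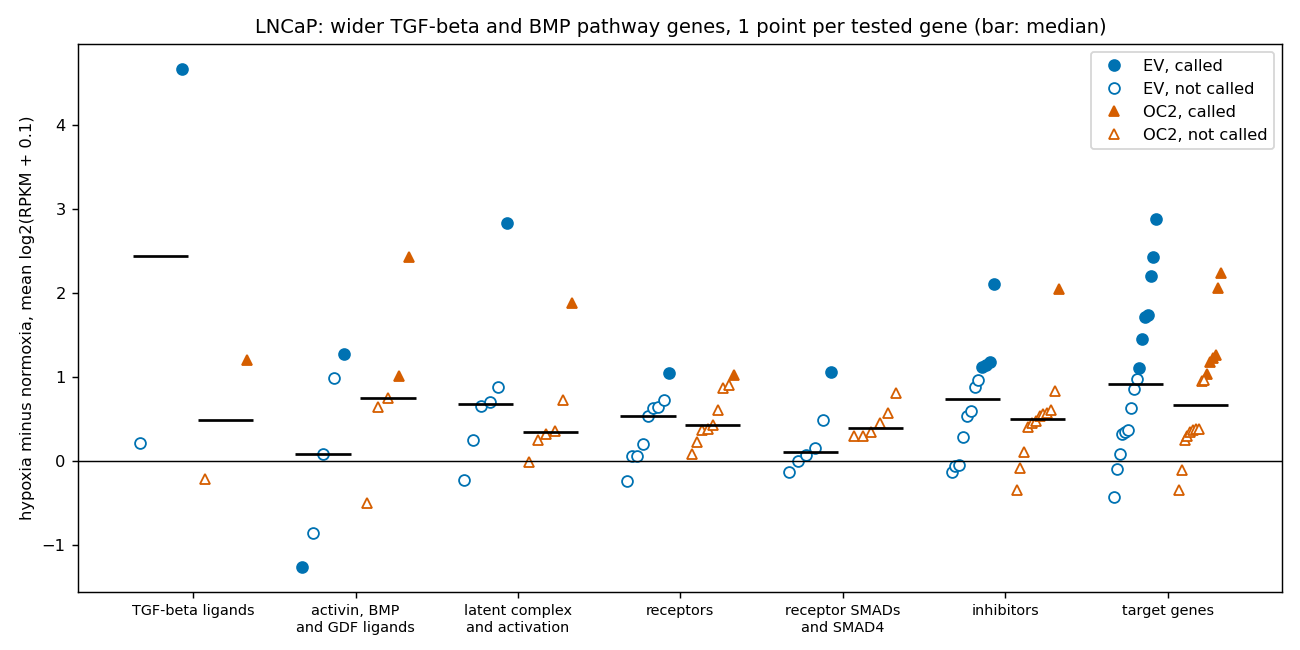
Hypoxia minus normoxia in mean log2(RPKM + 0.1) (y axis) for each tested gene of the 7 lists (x axis) in LNCaP cells, circles for EV and triangles for OC2, filled where called, with a bar at the list median. The 16 target genes hold 7 called in EV and 6 in OC2 cells, all above 0.

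With OC2 over EV in normoxia 3 of 16 target genes were called higher and 0 lower, with 7 higher by the adjusted p, beside 2.81% and 0.48% of all tested genes called higher and lower. SNAI1, a transcription factor of epithelial plasticity, had 1.32 and 1.45 RPKM with EV and 4.72 and 4.54 with OC2 in normoxia (1.67, SE 0.19, adjusted p = 0.00263). Under hypoxia SNAI1 had 1.67 and 1.29 RPKM against 3.89 and 3.39 (1.25, SE 0.19, adjusted p = 0.0058). ID2 rose with OC2 in normoxia from 36.1 and 35.4 to 91.4 and 105.5 RPKM (1.46, SE 0.11, adjusted p = 0.00029), and its interaction with hypoxia was -1.17 (SE 0.15, adjusted p = 0.0332). ID1 rose by 1.30 (SE 0.18, adjusted p = 0.00688) and had an interaction of -1.02 (SE 0.25, adjusted p = 0.123). TGFB3, the third ligand, was called higher with OC2 in normoxia (1.54, adjusted p = 0.0837) and hypoxia (1.12, adjusted p = 0.144). BMP7 was called higher with OC2 in both (2.18 and 1.91) from values under 2 RPKM, GDF15 lower in normoxia (-2.34), INHBB higher in hypoxia (1.01) and THBS1 lower in hypoxia (-1.12, SE 0.19, adjusted p = 0.00984). The interaction also called BMP6 (1.5) and GDF15 (2.34). No receptor and no receptor SMAD was called with OC2 by the fold limit.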

How the data were processed

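RNA-Seq values of 16 libraries were used, 8 of PC3 and 8 of LNCaP cells, with groups and replicate numbers from the labels. ChIP-Seq samples of the series, 12 in all, were left out. The authors aligned reads of stranded mRNA libraries to hg19 with STAR 2.4.2a and deposited RPKM per gene, computed with Cufflinks 2.1.1, and whether strand was used in counting is not given in the sources used here. No read counts were used, so depth was estimated from the steps of low RPKM and errors rest on how far libraries of a group lie apart. Whether the libraries of a group are separate cultures is not stated, so P values may measure technical spread.

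From the deposited RPKM, log2(RPKM + 0.1) of genes that reached 1 RPKM in 2 or more libraries was fitted per cell line with limma 3.58.1 in R 4.3.3, using 4 group means, an intensity trend and no replicate term. All tests were 2-sided, adjustment was by Benjamini-Hochberg within a comparison, and 95% intervals use limma's moderated degrees of freedom. The fit and the depth estimate were tested on simulated data. Taking exact 0 values as missing was another alternative, and none of the 9 genes had one.

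The 9 genes and the 7 wider lists were chosen with earlier results of these data known. Of the 9 genes all are described in every comparison, and of the lists up to 4 genes each by name, those called without overlap of the groups and with the largest difference. Genes named beside them were chosen after their values were seen. Alternatives were a pseudocount of 1, no filter or 5 RPKM, upper-quartile scaling, a replicate block, only the groups compared, adjusted p, and leaving out each library. In the siOC2 groups the label's number is that of the siRNA, and the deviations of same-numbered libraries in normoxia and hypoxia correlated at 0.618 across genes. Promoter windows and motif matches come from RefSeq, gene spans from a GENCODE annotation of GRCh37 that may differ from the release the authors used. Some genes of the lists and markers are not reported here by name.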

Additional observations from a re-analysis of the deposited data

Results flagged for a closer look

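TGFBR2 and TGFBR1 differed between the siRNAs against ONECUT2 in PC3 cells, by -1.69 and -1.56 on the log2 scale (siRNA2 over siRNA1), in both oxygen levels. These are 2 called of 9 genes, both lower, in a contrast where 19.7% of all tested genes were called, 15.4% higher and 4.31% lower. The siRNA2 over siRNA1 difference rests on 2 libraries each and was chosen after the values were seen.

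The effect of silencing on SMAD4 in PC3 cells differed between normoxia and hypoxia by -1.03 (limma adjusted p = 0.9998). The effect of OC2 in LNCaP cells differed between the oxygen levels for TGFB1 by -3.47 (limma adjusted p = 0.034; -1.38 with a pseudocount of 1) and for SMAD7 by -1.01 (limma adjusted p = 0.127). Groups of 2 libraries are too small to look for a library far from the others.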

How the results depend on the processing

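No called difference of the 9 genes changed sign under any alternative run. Of 80 differences of the tested genes 21, none of them called, changed sign under at least 1. TGFBR1 with silencing in normoxia was 0.80 with siRNA1 alone and ranged from -1.27 to 0.80 when 1 library was left out. Its hypoxia difference in siOC2 cells was 0.32 with siRNA2 alone and ranged from -1.23 to 0.84. The count of the 9 genes called with silencing of ONECUT2 in PC3 cells, 0 in both oxygen levels, became 1 in normoxia and 1 in hypoxia with the replicate block, 1 and 1 with a crossed block and 1 and 1 with an siRNA term. It became 2 and 2 with siRNA2 alone, 1 in hypoxia with siRNA1 alone (SMAD7 at 1.01) and 1 in hypoxia in a fit of only the groups compared, and ranged from 0 to 2 in each when 1 library was left out. For hypoxia in siOC2 cells 0 became 1 with siRNA1 alone (SMAD4 at -1.18) and ranged from 0 to 1 over the leave-outs. The crossed block, the siRNA term and the single siRNAs were chosen after seeing the data. Both blocks and the siRNA term take at least part of the difference between the siRNAs out of the spread. SMAD7 entered the PC3 test through the siRNA1 libraries alone, so its result with siRNA1 is not independent of the filter. The PC3 interaction count of 1 became 0 with a pseudocount of 1, upper-quartile scaling, the replicate block, adjusted p or siRNA2 alone, and ranged from 0 to 1.

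In LNCaP cells OC2 over EV in normoxia went from 1 to 0 with a pseudocount of 1 or the 5 RPKM filter and to 2 with no filter or adjusted p, and ranged from 1 to 2 over the leave-outs. In hypoxia it went from 0 to 1 with adjusted p. Hypoxia in EV cells went from 2 to 1 with the 5 RPKM filter, which removes TGFB1, to 3 with no filter and to 4 with adjusted p, and ranged from 2 to 3 over the leave-outs. Hypoxia in OC2 cells went from 1 to 0 with a pseudocount of 1 or 5 RPKM, 2 with no filter and 3 with adjusted p, and ranged from 1 to 2. The LNCaP interaction count went from 2 to 1 with a pseudocount of 1, 5 RPKM or adjusted p and to 3 with no filter, and ranged from 1 to 2 over the leave-outs. The replicate block changed no other call. Except for the siRNA, the libraries share only a number. Correlations of the deviations of same-numbered libraries, the siRNA pair aside, ran from -0.186 (siCtrl, normoxia and hypoxia) to 0.275 (OC2 and EV in hypoxia), with -0.107 for siCtrl and siOC2 in normoxia. Leaving out 1 library leaves a group of 1, whose spread is taken to be that of the other groups. Depth limits the low values of TGFB1, TGFB2 and TGFBR2 in LNCaP cells and SMAD7 in PC3 cells.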

Other observations

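The genes whose log2 values followed SMAD3 most closely over the 8 PC3 libraries were CDV3, SH3BGRL, SNX4, BUB1 and MOB3C, with Pearson correlations of 0.989 to 0.981. Over the 8 LNCaP libraries they were RP11-297N6.4, PLA2G7, KREMEN1, FGFR1 and RASGEF1C, with 0.974 to 0.952. These are descriptions over libraries that share groups and depth, with no test, and the lists have no gene in common.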
